A study of Mus musculus with 2 samples.

Results

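The thin filament genes of striated muscle were examined for Sap130 occupancy in the embryonic mouse heart. They are 10 genes, Tnnt2, Tnnt1, Tnni3, Tnni1, Tnnc1, Tpm1, Tpm2, Actc1, Acta2 and Acta1, among 20953 protein-coding genes, and their peaks are the rows of the authors' peak table whose gene annotation equals one of these names. There are 16697 peaks in all, of which 15171 name a gene and 19 name a thin filament gene. Sap130 belongs to the Sin3 complex, which carries histone deacetylases to chromatin. The study compared 1 chromatin immunoprecipitation library, made with a rabbit antibody to Sap130 from wild-type B6 heart at E13.5, with 1 library of input chromatin from wild-type B6 heart, labelled E13.6. How many hearts went into a library is not stated in the labels. With 1 library of each kind there is no replicate error, so the values below describe this peak list and carry no test. The columns used hold no peak height, fold enrichment, p-value or read count. The depth of the libraries is therefore unknown, and no precision can be given for a single peak. A peak list gives no expression, so the tissue label could not be checked against marker genes.

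The thin filament is a polymer of actin along which tropomyosin and the troponin complex lie. Troponin C binds calcium, troponin I inhibits the contact of actin with myosin, and troponin T anchors the complex to tropomyosin. The developing heart uses isoforms that are later exchanged: slow skeletal troponin I (Tnni1) gives way to cardiac troponin I (Tnni3), and the smooth muscle and skeletal actins (Acta2 and Acta1) are expressed in heart muscle beside cardiac actin (Actc1). Serum response factor, which binds CArG boxes, is a known activator of the muscle actin genes.

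Sap130 peaks were named for 8 of the 10 genes, and none was named for Acta1 or Tnnt1. Among all protein-coding genes 52.6% had a named peak. The same 8 genes had a promoter peak, meaning that the midpoint of the peak and the start site of its named transcript are at most 1 kb apart, against 50.6% of protein-coding genes. A peak that contains the start site itself was found for 5 of the 10, Tnnt2, Tnni1, Tnnc1, Tpm1 and Tpm2, against 43.0% of protein-coding genes. These start sites are those of the authors' table. In the promoter sequences used below, the RefSeq start of Tnni1 is 135799421, 90 bp upstream of the table's and 15 bp outside the peak. With the RefSeq starts of those sequences the count was 4. The RefSeq gene spans of Tnni1 and Tnnt2 begin further upstream still, at 135783033 and 135836315, outside every peak of these genes. The 3 remaining genes with peaks, Tnni3, Actc1 and Acta2, were occupied only downstream of their start site. With a limit of 500 bp in place of 1 kb, 5 of the 10 had a promoter peak, against 45.5% of protein-coding genes. The 10 genes were chosen with earlier results of these data known, so their share is a description and is not called different from that of other genes.

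The sequence around the start site shows where the listed peak edges lay. The first 4 promoters belong to genes whose start site lies in a peak by the table and by the RefSeq start of the sequence. This leaves out Tnni1. Each is printed from 150 bases before the start to base 30 of the transcript, 5′ to 3′ on the transcribed strand. Bases inside a peak are in capitals. Sequences are from RefSeq on GRCm38.p6, whose chromosomes are those of mm10. Peak edges are uncertain by at least 1 base, because the origin of the peak coordinates is not stated. Their further uncertainty is unknown, since the depth and the settings of the peak calling are not known.
Tnnt2, chr1:135836184-135836363, plus strand: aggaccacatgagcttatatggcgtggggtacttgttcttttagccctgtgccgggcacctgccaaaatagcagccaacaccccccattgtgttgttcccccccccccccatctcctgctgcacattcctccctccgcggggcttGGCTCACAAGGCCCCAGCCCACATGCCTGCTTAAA
Tnnc1, chr14:31208162-31208341, plus strand: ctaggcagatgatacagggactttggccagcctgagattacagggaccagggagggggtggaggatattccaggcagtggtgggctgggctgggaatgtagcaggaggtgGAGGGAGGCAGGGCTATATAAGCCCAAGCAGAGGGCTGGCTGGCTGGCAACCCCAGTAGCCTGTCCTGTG
Tpm1, chr9:67049184-67049363, minus strand: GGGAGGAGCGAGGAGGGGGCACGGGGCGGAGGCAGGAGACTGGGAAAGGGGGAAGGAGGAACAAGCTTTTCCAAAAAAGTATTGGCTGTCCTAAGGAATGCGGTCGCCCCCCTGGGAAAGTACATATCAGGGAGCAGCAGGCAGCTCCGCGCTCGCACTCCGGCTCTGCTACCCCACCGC
Tpm2, chr4:43523525-43523704, minus strand: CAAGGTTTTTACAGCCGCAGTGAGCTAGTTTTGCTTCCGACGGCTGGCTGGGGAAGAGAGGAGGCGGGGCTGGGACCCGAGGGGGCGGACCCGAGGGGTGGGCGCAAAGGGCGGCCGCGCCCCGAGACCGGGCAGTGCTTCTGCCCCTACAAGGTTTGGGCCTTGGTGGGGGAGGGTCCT

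In Tnnt2 the peak began 5 bp before the start site, so 35 of the 180 bases shown lie in it, nearly all of them transcribed. In Tnnc1 the peak began 40 bp before the start site and 70 of the 180 bases are covered. In Tpm1 and Tpm2 all 180 bases are covered, and the peaks reached 629 and 941 bp upstream of the start site.

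The next 4 promoters hold no base of a peak. They are those of the 3 muscle actin genes and of Tnnt1, printed in the same way, with matches to the TATA box, CArG box, M-CAT or GC box motifs in capitals.
Actc1, chr2:114052846-114053025, minus strand: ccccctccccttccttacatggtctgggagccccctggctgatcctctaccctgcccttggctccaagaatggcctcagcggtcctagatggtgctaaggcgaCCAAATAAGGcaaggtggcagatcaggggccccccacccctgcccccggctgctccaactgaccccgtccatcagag
Acta1, chr8:123894746-123894925, minus strand: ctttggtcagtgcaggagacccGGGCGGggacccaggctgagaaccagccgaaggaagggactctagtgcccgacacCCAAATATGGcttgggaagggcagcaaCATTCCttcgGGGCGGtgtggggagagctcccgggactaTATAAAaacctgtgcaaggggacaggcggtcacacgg
Acta2, chr19:34255344-34255523, minus strand: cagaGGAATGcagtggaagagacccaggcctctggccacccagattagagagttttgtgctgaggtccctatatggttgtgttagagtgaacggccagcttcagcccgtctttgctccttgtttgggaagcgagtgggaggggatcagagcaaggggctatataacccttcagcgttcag
Tnnt1, chr7:4515946-4516125, minus strand: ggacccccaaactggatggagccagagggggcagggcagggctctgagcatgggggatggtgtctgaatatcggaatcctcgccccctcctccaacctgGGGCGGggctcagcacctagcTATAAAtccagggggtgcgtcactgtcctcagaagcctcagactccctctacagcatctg

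For Tnni3, whose promoter is not shown, the RefSeq start lies 85 bp upstream of the table's. For Actc1 the start site in the authors' table, 114052811, lies 64 bp downstream of the RefSeq start used for the sequence, and the first peak of the gene began 82 bp downstream of the table's start site. The CArG box of Actc1, at bases -47 to -38, and that of Acta1, at -73 to -64, therefore lay outside every peak. Acta1 had no peak at all.

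**Figure D1:**
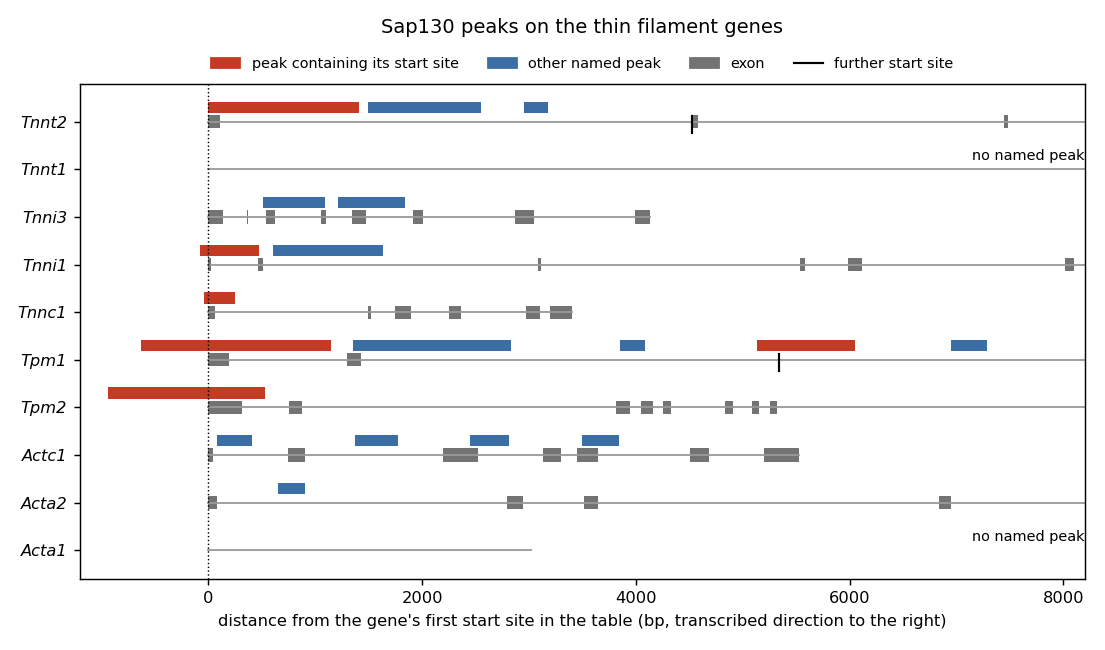
Named Sap130 peaks of each gene (red, containing the start site of its transcript; blue, not containing it) above the exons of the transcript that starts first (grey boxes), plotted by distance in bp from that transcript's start site; transcripts longer than the axis are cut at its right edge. Tnnt1 and Acta1, drawn as RefSeq gene spans with no exons, have no named peak, and apart from Tpm1 and Tpm2 no gene has a peak reaching more than 75 bp upstream of that start site.

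Of the troponin genes Tnnt2, which encodes cardiac troponin T, had the most peaks and the most bases in peaks. It lies on the plus strand of chromosome 1 (mm10), where its first start site in the table is at 135836334. Its promoter peak covered 135836329 to 135837746, a width of 1417 bp, and stood at position 11820, the row number in the authors' table. What that order follows is not stated in the labels or the table. The peak took in exon 1 and the beginning of intron 1. A second peak of 1057 bp followed after a gap of 81 bp, at 135837827 to 135838884 (position 10551), wholly in intron 1. The last, of 223 bp, at 135839288 to 135839511 (position 16028), was named for a shorter transcript and lay 1461.5 bp upstream of that transcript's start site, still within intron 1 of the longer one. Together the peaks covered 16.9% of the gene, all of it in exon 1 and intron 1 of the longer transcript.

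Tnni1, the slow skeletal troponin I gene and the main troponin I gene of the embryonic heart, had a pair of adjoining peaks. The first, at 135799436 to 135799990 on chromosome 1, was 554 bp wide, contained the start site at 135799511 and was centred 202 bp downstream in intron 1. The second, of 1028 bp, began 130 bp further on, at 135800120 to 135801148, and was centred 1123 bp downstream in intron 2. They stood next to each other in the table, at positions 12027 and 12028. The second was the wider and touched no exon, and its centre lay just outside the 1 kb used for a promoter peak.

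Tnni3, the cardiac troponin I gene, also had a pair, but away from the start site. The gene is on the minus strand of chromosome 7, with its start site in the table at 4522443. The nearer peak, at 4521353 to 4521932, was 579 bp wide, began 511 bp downstream of the start site and was centred 800.5 bp downstream in intron 3 (position 11564). The farther one, at 4520599 to 4521229, was 630 bp wide and centred 1529 bp downstream in intron 5 (position 11061). A gap of 124 bp separated them. Each contained 1 whole exon, exon 3 and exon 5 of 8. The peaks covered 27.4% of this gene of 4414 bp, the highest share among the 10 genes.

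Tnnc1, which encodes the calcium-binding troponin C of cardiac and slow skeletal muscle, had 1 narrow peak. It was 295 bp wide, at 31208272 to 31208567 on chromosome 14, contained the start site at 31208312 and was centred 107.5 bp downstream in intron 1 (position 13873). Its neighbour Nisch, which is transcribed away from it, starts 1486 bp from the Tnnc1 start site. The Nisch peak was 1384 bp wide, stood at position 1857 and ended 1558 bp before the Tnnc1 peak. Nisch was the only other gene with a named peak centred within 10 kb of where the RefSeq span of a thin filament gene starts. The Tnni3 peaks near Tnnt1 are left out of this statement.

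Tnnt1, the slow skeletal troponin T gene, had no peak in its span of 11407 bp. It lies directly beside Tnni3 on chromosome 7, with 2329 bp between the RefSeq spans, and the farther Tnni3 peak was centred 4939 bp upstream of the Tnnt1 start. Troponin I and T genes lie in pairs in the mouse genome, and the pairs differed in peaks. The Tnni1 and Tnnt2 pair held 2 and 3 peaks, with 1 peak of Lad1 between them. The Tnni3 and Tnnt1 pair held 2 peaks, both named for Tnni3. The pair of fast skeletal genes, Tnni2 and Tnnt3, held 0 peaks over 74398 bp. With Tnnc2, the fast skeletal troponin C gene, 0 of 3 fast skeletal troponin genes had a named peak. The fast skeletal genes were grouped after their values were seen.

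Tpm1 was the thin filament gene with the most peaks and the earliest in the table. It encodes alpha tropomyosin, from which alternative start sites and exons give muscle and non-muscle proteins. The gene is on the minus strand of chromosome 9, and its 5 peaks fell around 2 start sites, 67049213 for a longer transcript and 67043871 for a shorter one. The peak at the first start site was 1777 bp wide, the widest of the 19, at 67048065 to 67049842 (position 8524), centred 259.5 bp downstream. It was followed after 211 bp by a peak of 1470 bp at 67046384 to 67047854 (position 10570), centred in intron 2. The peak at the internal start site was 910 bp wide, at 67043166 to 67044076 (position 5770), centred 250 bp downstream in the coding part of exon 1 of the shorter transcript. That was the only peak of the 19 centred in an exon. Narrow peaks of 241 and 339 bp lay on either side of it, centred 1373.5 bp upstream and 1777.5 bp downstream, at positions 16592 and 11987. Both start sites of Tpm1 therefore lay in a peak.

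Tpm2, which encodes beta tropomyosin, had 1 peak of 1475 bp, at 43523020 to 43524495 on chromosome 4 (position 10824). It contained the start site at 43523554 on the minus strand and was the only peak of the 19 with its midpoint in front of the gene, 203.5 bp upstream of the start site. The peak ran from 941 bp before the start site to 534 bp after it and took in the whole of exon 1.

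The actin genes had narrow peaks, and none contained a start site. Actc1, the cardiac alpha actin gene on the minus strand of chromosome 2, had 4. They were 329, 405, 361 and 342 bp wide, with midpoints 246.5, 1576.5, 2631.5 and 3671 bp past the start site, in introns 1, 2, 3 and 5, at positions 16584, 13691, 12505 and 15808. The gaps between them were 963, 672 and 688 bp. The peak nearest the start site, at 114052400 to 114052729, thus came last in the table, and the peak of intron 3, at 114049999 to 114050360, came first. The peaks together covered 25.8% of this gene of 5594 bp. Acta2, the smooth muscle alpha actin gene on chromosome 19, had 1 peak of 250 bp in intron 1, at 34254468 to 34254718 (position 15135), centred 780 bp downstream of the start site at 34255373. Acta1, the skeletal alpha actin gene on chromosome 8, had none. The nearest peak to its start, at 123858855 to 123860177, belonged to Ccsap and was centred 35259 bp away.

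Of the 19 thin filament peaks 6 contained the start site of their named transcript, against 62.5% of all named peaks. Tpm1 with 5 peaks and Actc1 with 4 weigh most in the values over peaks. The median midpoint lay 780 bp past the start site, against 205 bp for all named peaks, and 16 of the 19 were centred downstream, 84.2% against 76.8% of named peaks. The other 3 were centred upstream of the transcript named for them, but those of Tnnt2 and Tpm1 lay within an intron of a longer transcript. In lists of related genes, described below, the median midpoint lay as far downstream or further in most. It was 1041.5 bp for cardiac myosin genes and 1091.5 bp for titin, the Z-disc and the M-band. For other actin, tropomyosin and troponin genes it was 1238.5 bp, and for regulators of sarcomere genes 1075 bp. Genes of thin filament ends, length and turnover had 487.5 bp. Of the 19 peaks 15 were centred in an intron of the named transcript, 78.9% against 40.4% of all named peaks. The first intron held 8 of them and later introns 7. Only 9 of the 19, 47.4%, were promoter peaks, against 84.1% of all named peaks. Among the promoter peaks alone the median distance was 250 bp, against 187 bp for all promoter peaks. The promoter peaks closest to the 1 kb limit were those of Tnni3 and Acta2, at 800.5 and 780 bp, and the nearest beyond it was the second Tnni1 peak at 1123 bp.

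Of the 8 genes with a peak 5 had at least 2, against 23.1% of protein-coding genes with a named peak, and 2 of the 8, Tpm1 and Actc1, had at least 4, against 1.95%. Close pairs set part of the first count. With peaks of a gene within 200 bp of each other merged, 3 of the 8, Tnnt2, Tpm1 and Actc1, had at least 2. The share among protein-coding genes with a named peak was then 12.7%. Tpm1 and Actc1 still had at least 4, against 0.671% of protein-coding genes with a named peak. Without merging, the 7 cardiac myosin genes with a named peak had 24 peaks, against 19 for the 8 thin filament genes. The 13 genes of titin, the Z-disc and the M-band had 27 and the 10 regulators of sarcomere genes 37. The 11 genes of thin filament ends, length and turnover had 19, and the 4 other actin, tropomyosin and troponin genes 7. At least 4 were also named for Myl3, Myl7, Mybpc3, Mef2d and Srf, among other genes of these lists. Of the 11 gaps between neighbouring peaks of a thin filament gene 4 were under 250 bp, those within the Tnnt2, Tnni1, Tnni3 and Tpm1 pairs. No peak named for another gene, or for none, was centred in any of the 10 genes. That count includes peaks to which the table gives no gene name, so the far parts of the longer genes held no listed peak either.

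The peaks came late in the table, and some were wide for their place in it. The earliest peak of each gene had a median position of 11544, against 5972 over all protein-coding genes with a named peak, and only the peak at the internal Tpm1 start stood among the first 8348 positions. Past position 10000 lay 17 of the 19 peaks, against 36.8% of all named peaks. The median width was 554 bp, with a range of 223 to 1777 bp, against 719 bp for all named peaks. Widths in the table fall with position, so each peak was set against the 500 rows before it and the 500 after it, or as many as there were. In that setting 12 of the 19 were wider than the median of their neighbours, against 50.5% of all named peaks. The widest for their place were the Tnnt2 promoter peak, wider than 99.0% of its neighbours, whose median was 436 bp, and the Tpm2 peak, wider than 98.4%. Then came the Tpm1 peaks at positions 10570 and 8524, wider than 98.0% and 96.5%, the second Tnni1 peak with 95.7% and the second Tnnt2 peak with 90.8%. These 6 peaks exceeded 90% of their neighbours, against 10.3% of all named peaks that did so. The peak at the internal Tpm1 start site was wider than 48.4% of its neighbours, and the actin peaks were wider than between 36.0% and 79.6% of theirs.

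**Figure D2:**
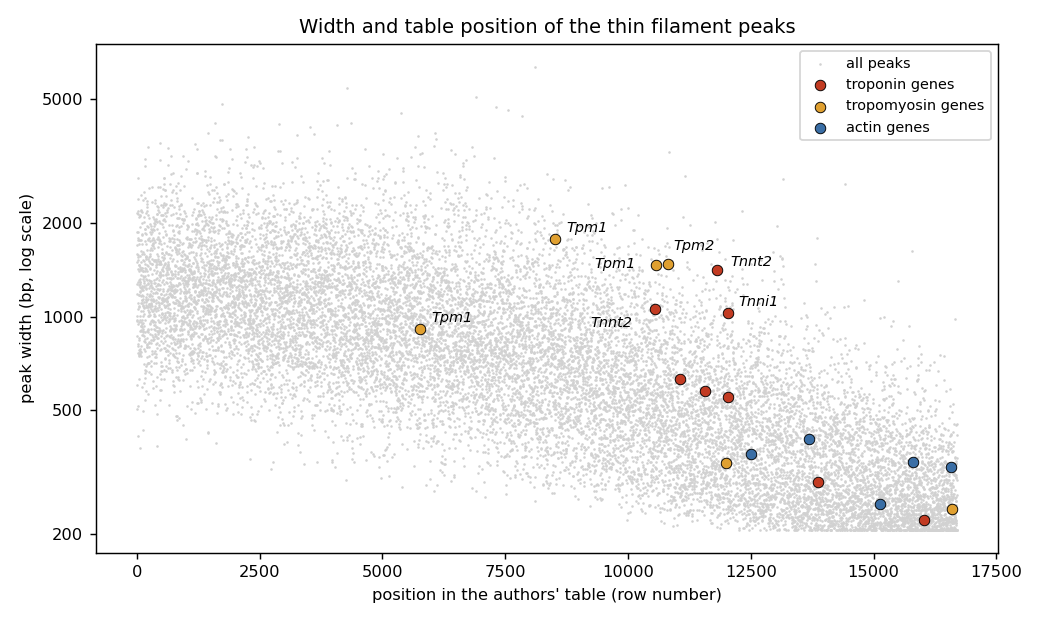
Width in bp (log scale) of every peak in the table against its row number, with the 19 thin filament peaks coloured by family and those of 900 bp or more labelled. The tropomyosin and troponin peaks of 1028 to 1777 bp stand above most grey points at their positions, and the 5 actin peaks are 250 to 405 bp wide at positions 12505 to 16584.

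The promoters of these genes are mostly poor in CpG dinucleotides. The CpG observed to expected ratio is the number of CpG sites over the number that the C and G content would give. It was computed from the first of the RefSeq promoter sequences of each gene, 250 bases before to 50 after its start. Ratios were computed for the 10 genes and for 16783 protein-coding genes in all. The median was 0.248 for the thin filament genes and 0.6 for all genes, while the GC content was alike, 59.0% and 56.7%. The lowest ratio, 0.043, belonged to Tnnc1, and the highest, 0.823, to Tpm1. Between them lay Tnni1 (0.188), Tnnt2 (0.226), Tnni3 (0.236), Tnnt1 (0.238), Actc1 (0.259), Acta2 (0.27), Acta1 (0.435) and Tpm2 (0.546).

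Promoter peaks in the whole table went with CpG-rich promoters. The median ratio was 0.793 in genes with a promoter peak and 0.25 in genes without one. Of the 8399 genes with a ratio up to the median of all genes 20.6% had a promoter peak, and 7 of the 9 thin filament genes among them had one. Of the 4196 genes with the lowest ratios, up to 0.237, 5.70% had a promoter peak, and all 4 thin filament genes in that group, Tnnc1, Tnni1, Tnnt2 and Tnni3, had one. Tnnt1, at 0.238, lies just above this bound and had none. This grouping was made after the data were seen, the low-ratio genes may include many that the heart does not express, and no expression data were used. In the related lists the same count, of genes with a ratio up to the median, was 7 of 7 cardiac myosin genes with a promoter peak. It was 7 of 12 genes of titin, the Z-disc and the M-band and 3 of 7 genes of thin filament ends, length and turnover. It was 1 of 2 other actin, tropomyosin and troponin genes and 1 of 2 regulators of sarcomere genes. Genes without a promoter sequence have no ratio and are left out. A sequence was used for all 8 cardiac myosin genes, and for 14 of 19, 13 of 18, 4 of 8 and 7 of 11 genes of the other lists in turn.

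**Figure D3:**
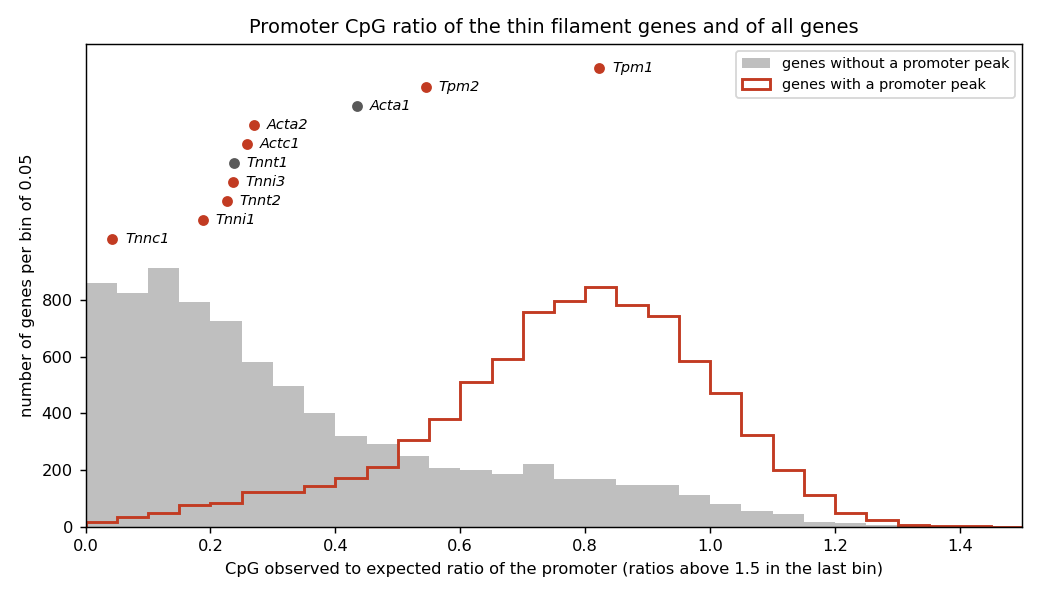
Number of genes by promoter CpG observed to expected ratio, for genes without a promoter peak (grey) and with one (red outline), with the 10 thin filament genes as points at their own ratio, stacked for legibility with no meaning on the vertical axis (red, promoter peak; dark grey, none). Of the points 9 lie below the median of all genes, 0.6, and Tpm1 alone lies above it.

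Short motifs known from muscle promoters were searched on both strands of the same 300 bases. The M-CAT motif, CATTCC, known as a site for TEAD factors, was found in 5 of the 10, Tnnt2, Tnnc1, Tpm1, Acta1 and Acta2, and in 13.2% of all promoters. The TATA box, searched only as TATAAA, was found in Actc1, Acta1 and Tnnt1, and in 13.2% of all promoters. The match of Actc1 is at bases 34 to 39, after the RefSeq start and before the start in the authors' table. The CArG box, searched as CC and GG with 6 bases of A or T between them, was found in Actc1 and Acta1 and in 1.56% of all promoters. Other spellings of either box, with a mismatch to these letters, were not counted. The GC box, GGGCGG, a site for Sp factors, was found in Tpm1, Tpm2, Acta1 and Tnnt1. It was held by 47.9% of all promoters, by 70.0% of those of genes with a promoter peak and by 25.0% of the rest. A GATA site, searched as GATA with A or T before it and A or G after it, was found only in Tnnt2 among the 10 and in 26.1% of all promoters, and a MEF2 site in none of the 10 and in 1.73%. The E-box, CANNTG, was found in all 10 and in 68.5% of all promoters. No matches of different motifs shared a base in the 10 promoters. Of these exact CArG, TATA and M-CAT matches in the 10 genes only the M-CAT match of Tpm1, at bases -56 to -51, lay inside a peak. The GC box matches of Tpm1 and Tpm2 lay inside peaks, and those of Acta1 and Tnnt1 did not. An E-box match of Tnnt2, at bases 15 to 20, and the E-box matches of Tpm1 and Tpm2 lay inside peaks. The other E-box matches and the GATA match lay outside. Most of the bases under the peaks lie further downstream than these 300 bases and were not searched.

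Related genes of the sarcomere were counted in the same way. Of 8 other actin, tropomyosin and troponin genes 4 had a named peak and 3 a promoter peak. The earliest were those of Actb, encoding the cytoplasmic beta actin, at position 1532, Tpm4 at 2992 and Tpm3 at 4153, all broadly expressed genes and all ahead of every peak in the 10 thin filament genes. Actg1 had 2 named peaks but no promoter peak, the nearer centred 1835.5 bp downstream of its start site. No peak was named for Actg2, Tnnc2, Tnni2 and Tnnt3, of smooth muscle and fast skeletal muscle. Of 18 genes that cap, measure or turn over the thin filament 11 had a promoter peak. They were led by Capzb (715), a subunit of the protein that caps barbed ends, Cfl1 (1459) and Cfl2 (1939), the cofilins that sever filaments, and Tmod3 (2477), a pointed end capping protein. Tmod1 and Lmod2, which act at the pointed ends of cardiac thin filaments, stood at 8708 and 14286, and Capza1, Lmod1, Neb and Nrap were among 7 with no named peak.

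In the 3 other lists the share of genes with a promoter peak ran from 52.6% to 87.5%. Of 8 cardiac myosin genes 7 had a promoter peak, with a median earliest position of 13951 against 11923.5 for the thin filament genes, and their 24 peaks had a median width of 402 bp. The earliest were Myh7b (11387), Myl3 (11399), Myl7 (12375) and Mybpc3 (13951), and Myl4, an atrial light chain, had no named peak. Of 19 genes of titin, the Z-disc and the M-band 10 had a promoter peak, led by Pdlim5 (4352), Obsl1 (5444), Des (6182) and Actn2 (8536), while Myom2, Myom3, Myot and Myoz2 were among 6 with no named peak. Of 11 regulators of sarcomere genes 9 had a promoter peak, led by Mef2d (969), Srf (1507), Mef2a (2106) and Tead1 (4621), with a median earliest position of 4681. No peak was named for Mef2c.

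**Figure D4:**
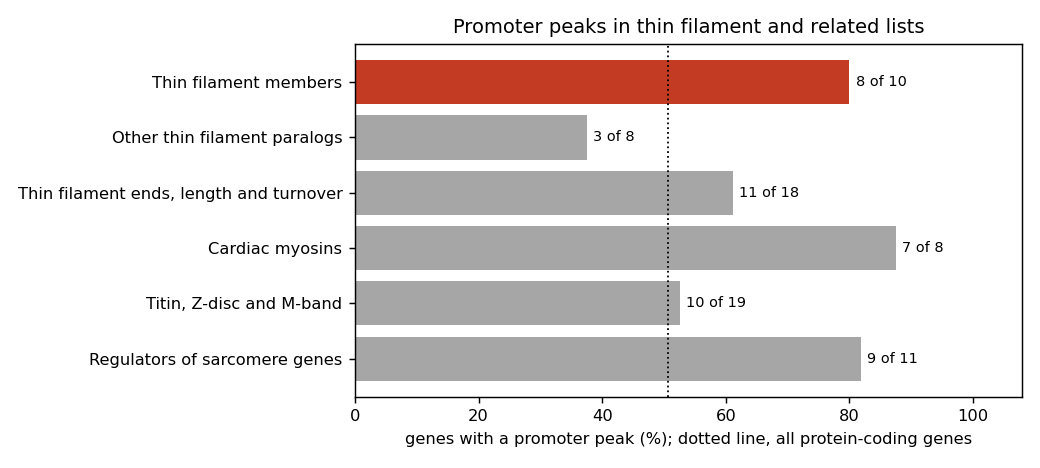
Share of genes with a promoter peak in the thin filament genes (red) and in 5 related lists (grey), in percent, with the counts beside each bar; the dotted line marks the 50.6% of all protein-coding genes. The thin filament genes reach 80% and the other actin, tropomyosin and troponin genes 37.5%.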

How the data were processed

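Sap130 chromatin immunoprecipitation and input libraries were sequenced from embryonic mouse heart, 1 of each. The submitters' processing notes name Bowtie 1.1.2, MACS2 2.1.0.20140616 and the builds GRCm38 and mm10. Their parameters, thresholds and the treatment of duplicates are not stated in the labels, and peak calls and widths may depend on them. The authors deposited 1 peak table that holds, per the file headers, the position of each peak, its row number and a gene name, beside a transcript with its span and exons. Its other values are positions, not read counts.

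The start site was column 10 plus 1 on the plus strand and column 11 plus 1 on the minus strand, since both transcript columns count from 0. Distances run from the start site to the peak midpoint, positive downstream. Named peaks were matched to RefSeq genes of GRCm38.p6 by accession (14986), symbol (135) or synonym (25), and 25 did not match. Promoter sequences were from RefSeq, GRCm38.p6. Where a gene has several such sequences, the one among them that starts first was used. The RefSeq gene span begins further upstream for some genes, among them Tnni1, Tnni3, Tpm1 and Acta2.

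The members and lists were chosen with earlier results of these data known. The rule for named genes took all 10 members, up to 4 genes per related list with the earliest promoter peaks, up to 4 without a named peak, and genes with a named peak within 10 kb of a member's start. Genes named outside it were Tmod1, Lmod2, Lad1 and Actg1, chosen after their values were seen, and Ccsap, which has the nearest peak to Acta1. No test was run. The placement of peaks was checked on simulated peaks. Alternatives covered windows, peak subsets, merging and coordinate origin. Calculations used Python 3.11.15, pandas 2.3.3 and NumPy 2.4.6, and figures matplotlib 3.10.9.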

Additional observations from a re-analysis of the deposited data

How the results depend on the processing

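The counts depended most on which part of the table was used. Among the first 8348 positions 1 of 10 genes, Tpm1, had a named peak, a promoter peak and a peak containing the start site. It had 1 peak there in all, of 910 bp, centred 250 bp downstream. Of all protein-coding genes 35.4% had a named peak among those positions and 34.4% a promoter peak. With only the peaks of median width or more, 7 peaks were left. From these 4 genes had a named peak, 3 a promoter peak and 3 a peak containing the start site. Of all protein-coding genes 34.8% had such a named peak and 33.6% such a promoter peak. A window of 500 bp left 5 genes with a promoter peak, against 45.5% of all genes. Merging peaks within 200 bp gave a median width of 383 bp and, in a count chosen after seeing the data, left 3 genes with 2 or more peaks in place of 5. Promoter peaks alone had a median width of 579 bp, a median distance of 250 bp and a median earliest position of 11923.5, and all 19 peaks a median position of 12027. The CpG ratio of the 150 bases before the start was 0.302, against 0.592 for all genes. Other settings left the counts and distances they were run for within 1.5 times the values above. They included a window of 3 kb, any base within 1 kb, peaks of any name and starts counted from 0. Merging for the peak count and distance and peaks widened by 200 bp on each side were also among them. So were the RefSeq start of the promoter sequence and merging for genes with 4 or more peaks, both added after seeing the data. The widened peaks contained the start site of 6 genes in place of 5. No paired analysis was possible because the study has 1 library of each kind and the result comes from no test. Depth is unknown, so a gene without a peak is one where none was listed, not one shown to be unbound.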
